A study of Mus musculus with 9 samples.

Results

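Semaphorins, ephrins, slits and netrins are guidance molecules that steer axons, and their receptors are also carried by cells of bone. The genes described here are 68 of the 40213 symbols in the count files, picked by gene name with earlier results of these data known. They are 20 semaphorins, 11 plexins and neuropilins, 8 ephrins, 14 Eph receptors, 7 slits and robos, and 8 netrins and Unc5 receptors. RNA came from primary calvarial pre-osteoblasts of 3-day-old wild-type mouse pups, cells of the skull vault that become osteoblasts. The cells were infected on day 3 with a control adenovirus (Ad-C) or with adenovirus for overexpression of Hif1a (Ad-Hif1a) or Hif2a (Ad-Hif2a, the gene also named Epas1), and all groups were kept until day 6 in osteogenic medium with L-AA at 50 μg/ml and β-Gp at 5 mM. Each group had 3 libraries, and the comparisons ask how the guidance genes differ between cells given each hypoxia-inducible factor and control cells, and between both factors.

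Semaphorins are secreted or membrane-bound ligands that act through plexins, with neuropilins as co-receptors for most secreted ones. Ephrins are membrane-bound ligands of the Eph receptor tyrosine kinases, and both partners signal into the cell that carries them. Slits act through robo receptors, and netrins through Dcc, neogenin and the Unc5 receptors. In bone, Sema3a and Sema4d are known to act on osteoblasts and osteoclasts, and the pairs Efnb2 with Ephb4 and Efna2 with Epha2 pass signals between these cells.

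Library totals were 14372589 to 18623403 counts. The study counts independent experiments as n, but the labels do not say whether the 3 libraries of a group came from separate cultures, so the p-values measure only the spread between these samples, which may be technical. Levels are given as CPM, the counts of a gene scaled to a common library size by the TMM method. Genes were tested with the quasi-likelihood test of edgeR on all 9 libraries with replicate number as a term, and a value in 9 libraries is from this fit unless another is named. The p-values were adjusted over 14413 genes, and the verbs rose and fell are used only where the adjusted p was under 0.05. Hif1a stood at 189.7 ± 3.45 CPM (SD, n = 3) in Ad-C, 1831 ± 549 in Ad-Hif1a and 536 ± 76.5 in Ad-Hif2a. Epas1 stood at 45.9 ± 3.59, 524 ± 139.8 and 1666 ± 736 CPM in the same order. Both genes rose with both vectors, though the Hif1a call with Ad-Hif2a was lost without any 1 Ad-C library or Ad-Hif2a replicate 1 (adjusted p 0.0510 to 0.0679). Each was highest with its own vector, and the direct differences between the vectors passed without the pair of libraries named next (log2 fold changes of -1.84 ± 0.16 for Hif1a and 1.98 ± 0.17 for Epas1, Ad-Hif2a against Ad-Hif1a, adjusted p = 1.49e-05 for both) but not in 9 libraries (0.823 and 1.000). They also passed without Ad-Hif2a replicate 3 alone (0.0227 and 5.57e-04) and by DESeq2 in 9 libraries (3.02e-07 and 0.0184). The counts per symbol do not separate vector transcripts from those of the cell.

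Ad-Hif1a replicate 1 and Ad-Hif2a replicate 3 stood apart from the other libraries. Mitochondrial transcripts made up 2.84% and 2.71% of their counts, against 3.56% to 5.58% in the other libraries with a Hif vector and 5.73% to 6.17% in Ad-C. Each held the lowest level of its own vector's gene within its group. For many genes, values are therefore also given from the 7 libraries without this pair. The pair was picked from these same data, and without it each Hif group lacked 1 of its 3 libraries. Calls gained in that fit are no separate test, and their SE rests on fewer libraries. Summed markers of other cell types were near 0 for endothelium (0.393 to 1.89 CPM, Cldn5 at 0 in every library). The macrophage sum was lower in both groups (given with Sema4d). The skeletal muscle sum was 53.1 to 64.0 CPM in Ad-C, 9.01 to 11.1 in Ad-Hif1a and 4.19 to 8.17 in Ad-Hif2a, where of 3 markers tested Myh1 fell with both vectors (57.7 CPM in Ad-C, 2.39 in Ad-Hif1a and 1.47 in Ad-Hif2a), Acta1 rose with both (log2 fold changes 3.22 and 2.47) and Tnnt3 was not called. Of 4 neural and glial markers tested, 0 were called, and their sum was 16.0 to 17.2 CPM in Ad-C and, without the pair, 18.0 to 23.1 in Ad-Hif1a and 18.4 to 27.6 in Ad-Hif2a, against 38.4 and 53.4 in the pair. Of 7 smooth muscle and pericyte markers, all tested, Des fell with both vectors and Myh11 with Ad-Hif2a, and the sum was 2496 to 2688 CPM in Ad-C and, without the pair, 2746 to 3121 and 2643 to 2756, against 3829 and 3772 in the pair. The osteoblast markers Col1a1, Runx2, Sp7, Alpl, Bglap, Ibsp and Spp1 were all tested, and Sp7, Alpl and Bglap fell with both vectors while Runx2 fell with Ad-Hif2a. Col1a1, Ibsp and Spp1 were not called with either vector. Ibsp (log2 fold changes 0.52 and 0.73) and Spp1 (0.37 and 0.61) lay in the other direction with Ad-Hif1a and Ad-Hif2a.

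Of the 68 genes, 59 had enough counts to be tested. With Ad-Hif1a, 6 rose and 7 fell, so that 22.0% of those tested were called, against 11.3% of all genes tested. With Ad-Hif2a, 6 rose and 11 fell, which is 28.8%, against 15.6% of all genes. In the same order, risen genes were 6.04% and 7.87% of all genes tested, and fallen genes 5.22% and 7.72%. These shares also apply to the counts given by family below. The median log2 fold change of the guidance genes was -0.08 with Ad-Hif1a and -0.13 with Ad-Hif2a, against 0.01 for all genes in both comparisons. Both comparisons share the Ad-C libraries. In all, 18 genes were called with at least 1 vector and 12 with both, and none of these 12 had opposite signs. Sema3g, Sema3c, Sema4c, Epha7 and Ntn1 rose with both vectors, and Sema3a, Sema3b, Sema4d, Plxnc1, Plxnd1, Efnb1 and Ephb1 fell with both.

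**Figure D1:**
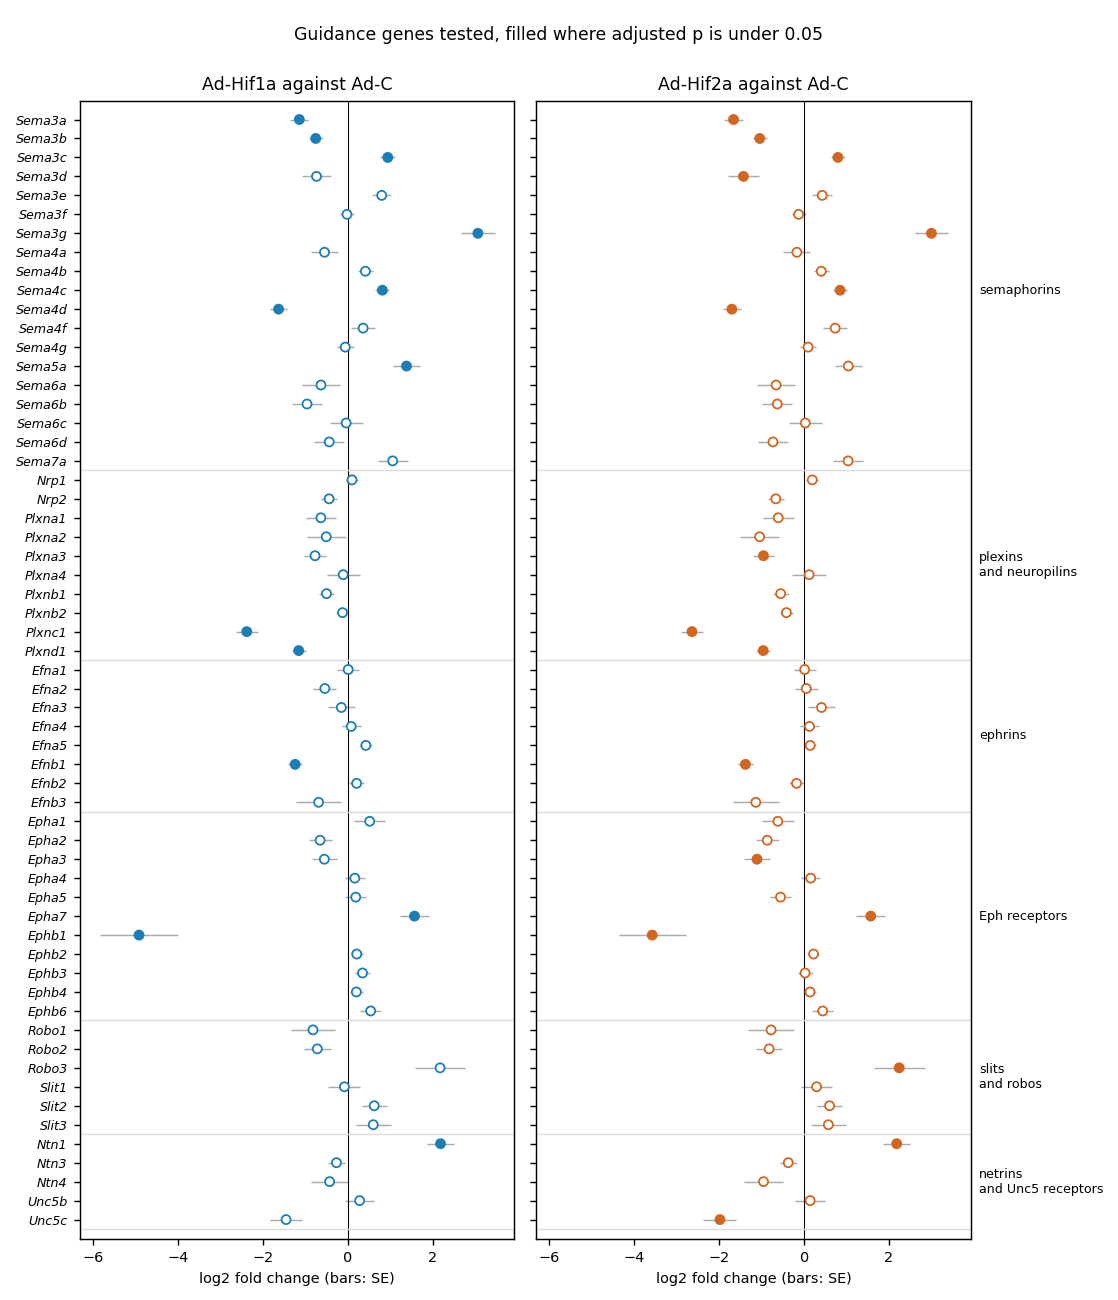
Log2 fold change against Ad-C (x axis, bars: SE) of the 59 guidance genes tested, by family (y axis), with Ad-Hif1a on the left and Ad-Hif2a on the right. Filled points are past an adjusted p of 0.05. Sema3g lies farthest to the right in both panels (3.06 and 3.00), and Plxnc1 (-2.39 and -2.64) farthest to the left after Ephb1, whose fitted value rests on few counts and depends on the prior count.

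The share of calls depended on single libraries across all genes. Without Ad-C replicate 1, 2.99% of all genes and 4 of 60 guidance genes were called with Ad-Hif1a, and without Ad-Hif2a replicate 3 the values were 36.4% and 31 of 60. For Ad-Hif2a these were 4.67% and 6 of 60, and 22.6% and 25 of 60. Without the pair, Ad-Hif1a gave 11 rises and 16 falls among the guidance genes and Ad-Hif2a 13 of each, against 27.6% and 28.7% of all genes called. Of the 30 calls, 9 passed in every other fit tried in which the gene was tested, those without 1 library included: Plxnc1, Sema3g and Sema4d with both vectors, and Sema3a, Efnb1 and Ntn1 with Ad-Hif2a.

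**Figure D2:**
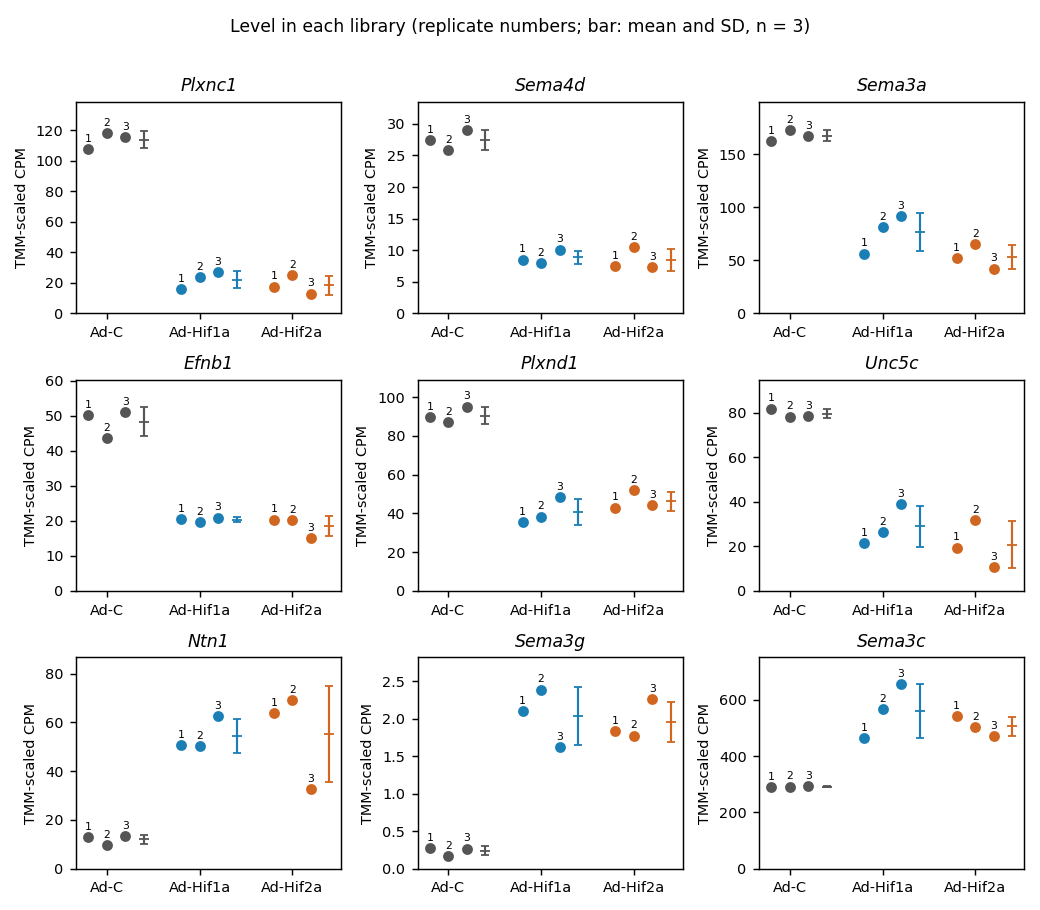
TMM-scaled CPM (y axis) of 9 guidance genes in each library, with replicate numbers, by group (x axis). Bars beside the points are the mean and SD of 3 libraries. In each panel the 3 Ad-C libraries lie outside the range of the 6 libraries with a Hif vector.

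Because the cells carried adenovirus for hypoxia-inducible factors, the promoters of the called genes were searched for the core letters of the hypoxia response element, ACGTG or GCGTG on either strand, in the 250 bases before each RefSeq start (build GRCm38.p6). Promoter entries were found for 59 of the 68 genes and 16 of the 18 called ones, not for Ntn1 and Sema3b. The letters were in 45.0% of 20 promoters of called genes, 44.7% of 47 promoters of genes tested and not called, and 38.6% of all 32851 promoters, whose median GC content was 52.4% against 64.4% for the guidance genes. For 14 of the 20 promoters of called genes, the last 25 bases of the entry, after the start, lay in a GENCODE M21 transcript of the gene. The other starts were not matched in this way. A match is a description of letters only. No match was found for Epha3, Epha7, Plxna3, Sema3a, Sema3d, Sema3g or Unc5c. The sites of 5 called genes that the results below turn on are shown 5′ to 3′ on the gene's strand with the matching letters in capitals, taken from RefSeq GRCm38.p6 at chr10:94945032-94945060 (minus strand, Plxnc1), chr13:51748856-51748884 (minus, 1 of 3 Sema4d promoters), chrX:99136001-99136029 (plus, Efnb1), chr5:17574759-17574787 (plus, the nearest to the start of 2 matches in Sema3c) and chr6:115995030-115995058 (minus, the nearest to the start of 4 matches in Plxnd1).
Plxnc1: gaggggagatggGCGTGgagggagggcgg
Sema4d: agccccctgcagCACGTcccccctcaccc
Efnb1: cctgctctgtggGCGTGgtatggggcaag
Sema3c: cggggttgagcgACGTGgagaagggctcc
Plxnd1: cggggcgaaaggGCGTGggccaagctgct

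Among the semaphorins, 19 of 20 were tested. Ad-Hif1a gave 4 rises and 3 falls, and Ad-Hif2a 3 rises and 4 falls. Per kb of merged exons, Sema3c was the highest of them in Ad-C at 40.9 CPM per kb, followed by Sema3a at 12.1 and Sema3b at 8.95. Sema3a, a secreted ligand of Nrp1 and class A plexins that restrains osteoclast formation and favours bone formation, stood at 162, 173 and 167 CPM in Ad-C, 56.3, 81.5 and 91.4 CPM in Ad-Hif1a and 52.0, 65.2 and 42.1 CPM in Ad-Hif2a. All 6 libraries with a Hif vector lay below the Ad-C libraries. Sema3a fell by 1.15 ± 0.21 (SE) on the log2 scale with Ad-Hif1a (adjusted p = 0.0162) and by 1.66 ± 0.22 with Ad-Hif2a (adjusted p = 0.00311). The Ad-Hif1a call was lost without any 1 of the Ad-C libraries, Ad-Hif1a replicate 1 or Ad-Hif1a replicate 2 (adjusted p 0.0611 to 0.114), and the Ad-Hif2a call was kept in every such fit.

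Sema3b, another secreted semaphorin, stood at 42.2, 38.9 and 47.1 CPM in Ad-C, 28.0, 23.6 and 24.2 CPM in Ad-Hif1a and 20.1, 22.7 and 19.2 CPM in Ad-Hif2a, with no overlap between Ad-C and either Hif group. It fell by 0.76 ± 0.17 with Ad-Hif1a (adjusted p = 0.0276) and by 1.05 ± 0.17 with Ad-Hif2a (adjusted p = 0.00667). Leaving out any 1 library of Ad-C or Ad-Hif1a ended the first call (adjusted p 0.0518 to 0.197), and leaving out Ad-C replicate 1 or 3 the second (0.0511 to 0.0567). Sema3c, a secreted ligand read through neuropilins and Plxnd1, moved the other way. Its levels were 291, 292 and 293 CPM in Ad-C, 464, 566 and 656 CPM in Ad-Hif1a and 541, 505 and 472 CPM in Ad-Hif2a, so that the Ad-C libraries lay close together and below all others. Sema3c rose by 0.94 ± 0.17 with Ad-Hif1a (adjusted p = 0.0147) and by 0.80 ± 0.17 with Ad-Hif2a (adjusted p = 0.0212). These calls were lost without any 1 of the Ad-C libraries or Ad-Hif1a replicate 2 (0.0884 to 0.122 with Ad-Hif1a), and for Ad-Hif2a also without its replicate 1 or 2 (0.0593 to 0.137 over those 6 fits).

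Sema3g, a class 3 semaphorin known from endothelial cells, had the largest fitted rise of the guidance genes from a low level. It had 0.276, 0.168 and 0.267 CPM in Ad-C, 2.10, 2.38 and 1.62 CPM in Ad-Hif1a and 1.83, 1.77 and 2.26 CPM in Ad-Hif2a, from 5, 3 and 5 counts in the Ad-C libraries, and every library with a Hif vector was above every Ad-C library. The log2 fold change was 3.06 ± 0.39 with Ad-Hif1a (adjusted p = 0.00371) and 3.00 ± 0.39 with Ad-Hif2a (adjusted p = 0.00309). The endothelial markers Pecam1, Cdh5, Tek, Emcn, Tie1, Esam and Cldn5 summed to at most 1.18 CPM in an Ad-C library, 1.22 in Ad-Hif1a and 1.89 in Ad-Hif2a. Of these 7, 1 had enough counts to be tested, Pecam1, named here after its values were seen, and it rose with Ad-Hif2a (log2 fold change 3.44 ± 0.68, from 0, 2 and 3 counts in Ad-C). Their part in the result was not tested.

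Sema4d, a membrane semaphorin of immune and osteoclast-lineage cells that restrains osteoblasts through Plxnb1, stood at 27.4, 25.9 and 29.0 CPM in Ad-C, 8.50, 7.97 and 10.1 CPM in Ad-Hif1a and 7.43, 10.5 and 7.36 CPM in Ad-Hif2a. The groups with a Hif vector did not reach the lowest Ad-C library. Sema4d fell by 1.63 ± 0.20 with Ad-Hif1a (adjusted p = 0.00341) and by 1.70 ± 0.21 with Ad-Hif2a (adjusted p = 0.00231), and without the pair that stood apart the log2 fold changes were -1.67 ± 0.18 and -1.53 ± 0.18. Macrophage markers moved with it: 4 of 7 (Csf1r, Mrc1, Cd68 and Ptprc) fell with each vector and none rose, and their sum was 727 to 776 CPM in Ad-C, 256 to 306 in Ad-Hif1a and 269.9 to 339 in Ad-Hif2a, with no marker at 0. Their part in the result was not tested, and in bulk RNA fewer cells of a type and less RNA per cell cannot be told apart.

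The other called semaphorins lie outside the rule that set which genes were described by library, and were added after their values were seen. Sema4c, a membrane-bound class 4 semaphorin, stood at 10.2, 10.6 and 11.1 CPM in Ad-C, 19.3, 19.4 and 17.1 CPM in Ad-Hif1a and 17.0, 18.5 and 21.9 CPM in Ad-Hif2a. It rose by 0.81 ± 0.17 with Ad-Hif1a (adjusted p = 0.0222) and 0.85 ± 0.17 with Ad-Hif2a (adjusted p = 0.0150), and without any 1 Ad-C library neither call held (adjusted p 0.0797 to 0.109 for Ad-Hif2a). The first was also lost without Ad-Hif1a replicate 1 or 2 (0.111 to 0.158 over those 5 fits). Of its exonic bases, 7.27% overlap D430040D24Rik on the opposite strand, and whether counting used strand is not given in the sources used here. Sema5a, a membrane semaphorin with thrombospondin repeats, had 29.0, 27.1 and 30.6 CPM in Ad-C, 57.7, 76.7 and 93.1 CPM in Ad-Hif1a and 58.4, 88.0 and 36.8 CPM in Ad-Hif2a. All libraries with a Hif vector were above Ad-C, with Ad-Hif2a replicate 3 nearest to it. Sema5a rose by 1.38 ± 0.31 with Ad-Hif1a (adjusted p = 0.0336, lost without any 1 library of Ad-C or Ad-Hif1a or without Ad-Hif2a replicate 1, at 0.0607 to 0.149). Its log2 fold change with Ad-Hif2a was 1.04 ± 0.32 (adjusted p = 0.0671), and without the pair it was 1.41 ± 0.16 (adjusted p = 3.80e-06), passing also without Ad-Hif1a replicate 3 or Ad-Hif2a replicate 3 alone (1.36e-04 to 0.0376), and in 9 libraries without the replicate block (0.0254) and by DESeq2 (0.0102).

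Sema3d, a secreted semaphorin, fell by 1.43 ± 0.36 with Ad-Hif2a (adjusted p = 0.0364), from 39.7 ± 2.47 CPM (SD, n = 3) in Ad-C to 15.1 ± 6.86, with Ad-Hif2a replicate 3 lowest at 7.94 CPM. Leaving out any 1 Ad-C library, Ad-Hif1a replicate 2 or Ad-Hif2a replicate 1 ended this call (adjusted p 0.0667 to 0.190). Without the pair the log2 fold change was smaller, at -1.06 ± 0.17 (adjusted p = 1.12e-04). With Ad-Hif1a the value was -0.74 ± 0.35 (adjusted p = 0.231) in 9 libraries and -0.57 ± 0.17 (adjusted p = 0.0169) without the pair, and it passed without Ad-Hif1a replicate 3 or Ad-Hif2a replicate 3 alone (0.00570 to 0.0430). Sema7a, a membrane-anchored semaphorin that binds integrins and Plxnc1 and acts on both bone cell types, stood at 3.26, 3.70 and 3.42 CPM in Ad-C, 5.55, 7.85 and 8.20 CPM in Ad-Hif1a and 6.72, 12.1 and 3.71 CPM in Ad-Hif2a. Every library with a Hif vector was above Ad-C, the nearest being Ad-Hif2a replicate 3. Its log2 fold changes of 1.05 ± 0.35 and 1.04 ± 0.36 did not pass in 9 libraries (adjusted p = 0.111 and 0.0942), while DESeq2 called both (0.0400 and 0.0336) and the 6 libraries compared called the first (0.00357). They passed without Ad-Hif2a replicate 3 (adjusted p = 0.00226 and 7.24e-04), and without the pair they were 1.08 ± 0.23 and 1.46 ± 0.23 (adjusted p = 0.00210 and 9.83e-05). Sema3e, Sema3f, Sema4a, Sema4b, Sema4f, Sema4g, Sema6a, Sema6b, Sema6c and Sema6d were not called, with log2 fold changes from -0.96 (Sema6b) to 0.80 (Sema3e) with Ad-Hif1a and from -0.73 (Sema6d) to 0.73 (Sema4f) with Ad-Hif2a. Sema5b, with at most 0.112 CPM in a library, was not tested.

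**Figure D3:**
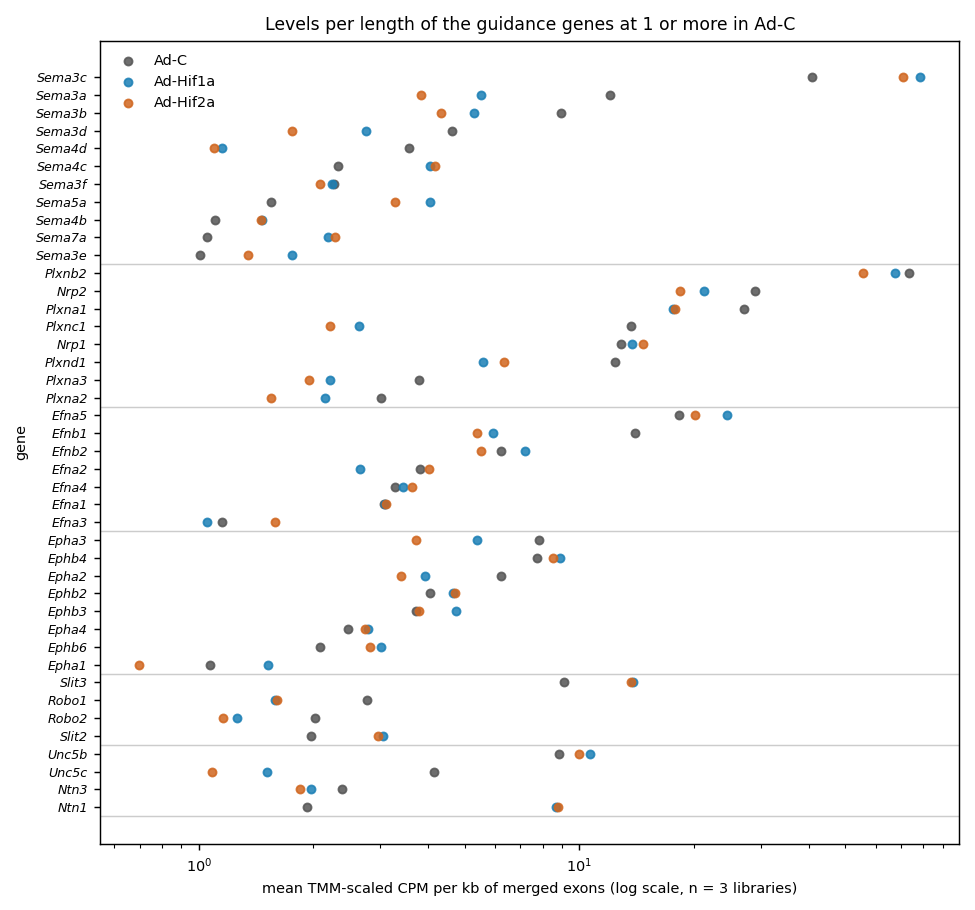
Mean TMM-scaled CPM per kb of merged exons (x axis, log scale, 3 libraries a group) of the guidance genes at 1 or more in Ad-C, ordered within each family by the Ad-C level (y axis). Plxnb2 (73.6 in Ad-C) and Sema3c (40.9) are the highest in Ad-C, and Plxnc1 drops from 13.6 in Ad-C to 2.64 in Ad-Hif1a and 2.22 in Ad-Hif2a.

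Of 10 plexins and neuropilins tested, 0 rose with either vector, where 6.04% and 7.87% of all genes tested rose with Ad-Hif1a and Ad-Hif2a. At such shares 0 of 10 is not unusual. In the family 2 fell with Ad-Hif1a and 3 with Ad-Hif2a, against 5.22% and 7.72% of all genes. The median log2 fold changes were -0.51 and -0.64. The highest per length in Ad-C was Plxnb2, a receptor of class 4 semaphorins, at 73.6 CPM per kb, followed by Nrp2 at 28.9 and Plxna1 at 27.0. Plxnc1, a receptor of Sema7a, stood at 108, 118 and 116 CPM in Ad-C, 15.7, 23.5 and 26.9 CPM in Ad-Hif1a and 17.4, 25.2 and 12.9 CPM in Ad-Hif2a. The highest library with a Hif vector, Ad-Hif1a replicate 3, was far below the lowest Ad-C library. Plxnc1 fell by 2.39 ± 0.26 with Ad-Hif1a (adjusted p = 0.00206) and by 2.64 ± 0.27 with Ad-Hif2a (adjusted p = 0.00121), and without the pair the log2 fold changes were -2.26 ± 0.15 and -2.37 ± 0.15. Of its exonic bases, 1.38% overlap Gm48718 on the same strand. Plxnc1 is also carried by myeloid cells, and the macrophage marker sum moved from 727 to 776 CPM in Ad-C to 256 to 306 in Ad-Hif1a and 269.9 to 339 in Ad-Hif2a. Among those markers the log2 fold changes ran from -3.72 (Mrc1) to -0.21 (Adgre1) with Ad-Hif1a and from -4.48 to -0.02 for the same genes with Ad-Hif2a, and their part in the result was not tested.

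Plxnd1, the receptor of Sema3e, stood at 89.5, 86.9 and 95.1 CPM in Ad-C, 35.4, 38.4 and 48.4 CPM in Ad-Hif1a and 43.0, 52.0 and 44.1 CPM in Ad-Hif2a, with all Hif libraries below Ad-C. It fell by 1.16 ± 0.16 with Ad-Hif1a (adjusted p = 0.00520) and by 0.96 ± 0.16 with Ad-Hif2a (adjusted p = 0.00841). Without Ad-C replicate 1 or Ad-Hif1a replicate 2 the first missed the threshold (adjusted p 0.0560 to 0.0577), as did the second without Ad-C replicate 1 or 3 (0.0577 to 0.0787). Plxna3, a receptor that pairs with neuropilins, stood at 28.4, 29.3 and 31.9 CPM in Ad-C, 16.7, 14.3 and 21.3 CPM in Ad-Hif1a and 16.3, 18.7 and 11.0 CPM in Ad-Hif2a, again without overlap with Ad-C. It fell by 0.96 ± 0.25 with Ad-Hif2a (adjusted p = 0.0438), a call lost without any 1 Ad-C library, Ad-Hif1a replicate 1 or 2, or Ad-Hif2a replicate 1 (0.0639 to 0.183). Without the pair this log2 fold change was smaller, at -0.65 ± 0.16 (adjusted p = 0.00449). With Ad-Hif1a the log2 fold change was -0.78 ± 0.25 (adjusted p = 0.0996), and -0.82 ± 0.16 (adjusted p = 8.99e-04) without the pair, and it passed without Ad-Hif1a replicate 3 or Ad-Hif2a replicate 3 alone (0.00138 to 0.0399). It also passed without the replicate block (0.0355), by DESeq2 (0.0370) and in the 6 libraries compared (0.00388).

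The receptors of Sema3a and Sema4d with a known part in bone were not called. Nrp1, the co-receptor of Sema3a, stood at 120.1, 135 and 123 CPM in Ad-C, 133, 142 and 129 CPM in Ad-Hif1a and 139, 132 and 161 CPM in Ad-Hif2a. The groups overlapped, with log2 fold changes of 0.10 ± 0.15 (adjusted p = 0.696) and 0.19 ± 0.15 (adjusted p = 0.370). Plxna1, a signalling partner of Nrp1, stood at 251, 219 and 264 CPM in Ad-C, 108, 154 and 216 CPM in Ad-Hif1a and 171, 220.3 and 93.9 CPM in Ad-Hif2a. The pair that stood apart held the lowest values in both groups, and the changes of -0.64 ± 0.36 and -0.61 ± 0.36 did not pass (adjusted p = 0.306 and 0.261). Without the pair, Plxna1 fell with Ad-Hif1a (log2 fold change -0.47 ± 0.15, adjusted p = 0.0292, and 0.00828 without Ad-Hif2a replicate 3 alone), a call that did not hold without the block (0.0865). Of its exonic bases, 10.7% overlap Gm26811 on the opposite strand. Plxnb1, the receptor of Sema4d on osteoblasts, stood at 8.67, 7.74 and 7.43 CPM in Ad-C, 5.44, 6.17 and 5.22 CPM in Ad-Hif1a and 5.66, 6.23 and 4.44 CPM in Ad-Hif2a. All Hif libraries lay below Ad-C, but the changes of -0.50 ± 0.19 and -0.55 ± 0.19 did not pass in 9 libraries (adjusted p = 0.140 and 0.0881) or without the pair (0.139 and 0.107), and the first passed without Ad-Hif2a replicate 3 alone (0.0394). Nrp2, Plxna2, Plxna4 and Plxnb2 were not called, at -0.51 (Plxna2) to -0.11 (Plxna4) with Ad-Hif1a and -1.05 (Plxna2) to 0.12 (Plxna4) with Ad-Hif2a. Plxnb3, with at most 16 counts in a library, was not tested.

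Among the ephrins, 1 of 8 was called, and it fell with both vectors. Efnb1, a membrane-spanning ephrin whose loss disturbs skull development, stood at 50.3, 43.7 and 51.2 CPM in Ad-C, 20.6, 19.7 and 20.9 CPM in Ad-Hif1a and 20.4, 20.2 and 15.1 CPM in Ad-Hif2a. All Hif libraries were below Ad-C and close to each other, apart from a lower Ad-Hif2a replicate 3. Efnb1 fell by 1.24 ± 0.17 with Ad-Hif1a (adjusted p = 0.00505) and by 1.38 ± 0.17 with Ad-Hif2a (adjusted p = 0.00253). The Ad-Hif1a call narrowly missed the threshold without Ad-C replicate 3 or Ad-Hif1a replicate 2 (adjusted p 0.0509 to 0.0519), and without the pair the log2 fold changes were -1.22 ± 0.14 and -1.21 ± 0.14. The related Efnb2, which signals between osteoclasts and Ephb4 on osteoblasts, had 41.0, 39.8 and 47.2 CPM in Ad-C, 46.5, 49.0 and 52.1 CPM in Ad-Hif1a and 37.0, 44.0 and 32.2 CPM in Ad-Hif2a. Its groups overlapped and its changes of 0.20 ± 0.17 and -0.18 ± 0.17 did not pass (adjusted p = 0.471 and 0.470). Efna2, a lipid-anchored ephrin of osteoclast precursors, stood at 7.45, 8.30 and 8.61 CPM in Ad-C, 7.59, 4.71 and 4.60 CPM in Ad-Hif1a and 8.32, 6.34 and 11.1 CPM in Ad-Hif2a. Its log2 fold change was -0.54 ± 0.27 with Ad-Hif1a (adjusted p = 0.258) and 0.05 ± 0.27 with Ad-Hif2a (adjusted p = 0.903), and without the pair it fell with Ad-Hif1a (-0.77 ± 0.22, adjusted p = 0.0145). Efna1, Efna3, Efna4, Efna5 and Efnb3 were not called, at -0.69 (Efnb3) to 0.42 (Efna5) with Ad-Hif1a and -1.14 (Efnb3) to 0.41 (Efna3) with Ad-Hif2a. Of the ephrins, Efna5 was the highest per length in Ad-C at 18.2 CPM per kb, and Efnb1 followed at 14.0.

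The Eph receptors held 1 rise and 1 fall with Ad-Hif1a among 11 tested, and 1 rise and 2 falls with Ad-Hif2a. Epha7, a receptor of A-type ephrins, stood at 5.47, 4.43 and 6.20 CPM in Ad-C, 14.7, 14.7 and 18.3 CPM in Ad-Hif1a and 20.3, 19.3 and 8.81 CPM in Ad-Hif2a. All Hif libraries were above Ad-C, with Ad-Hif2a replicate 3 the lowest of them. Epha7 rose by 1.57 ± 0.34 with Ad-Hif1a (adjusted p = 0.0282) and by 1.57 ± 0.34 with Ad-Hif2a (adjusted p = 0.0236). The calls were lost without any 1 library of Ad-C or Ad-Hif1a (0.0569 to 0.159, Ad-Hif1a) and without any 1 of Ad-C, Ad-Hif1a replicate 2 or Ad-Hif2a replicate 1 or 2 (0.0517 to 0.144, Ad-Hif2a), while without the pair the rises were 1.63 ± 0.18 and 2.00 ± 0.18. Ephb1, a receptor of B-type ephrins, went from 15, 13 and 15 counts in the Ad-C libraries to 0, 1 and 0 in Ad-Hif1a and 1, 2 and 0 in Ad-Hif2a. Summed over each group and scaled to library size, this was 0.0249 of the Ad-C level with Ad-Hif1a (exact 95% interval 0.000617 to 0.147) and 0.0791 with Ad-Hif2a (0.0157 to 0.247), intervals that cover counting error only. Ephb1 fell with both (adjusted p = 0.0166 and 0.0241), though not without Ad-C replicate 1 or 3 or Ad-Hif1a replicate 2, nor, for Ad-Hif1a, without its replicate 1 (0.0848 to 0.125) and, for Ad-Hif2a, without its replicate 1 or 2 (0.0569 to 0.167). Of its exonic bases, 2.17% overlap Gm26846 on the opposite strand.

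Epha3, another receptor of A-type ephrins and the highest Eph receptor per length in Ad-C at 7.83 CPM per kb, stood at 68.3, 68.1 and 67.9 CPM in Ad-C, 34.1, 47.9 and 58.2 CPM in Ad-Hif1a and 30.1, 46.4 and 20.5 CPM in Ad-Hif2a. Ad-C was uniform, and the pair that stood apart was lowest in both Hif groups. Epha3 fell by 1.11 ± 0.30 with Ad-Hif2a (adjusted p = 0.0454), and the call was lost without any 1 Ad-C library, Ad-Hif1a replicate 1 or 2, or Ad-Hif2a replicate 1 (0.0517 to 0.227), and with only the genes at 10 or more counts in every library (0.0517). Without the pair this log2 fold change was smaller, at -0.79 ± 0.16 (adjusted p = 0.00155). With Ad-Hif1a the value was -0.56 ± 0.29 (adjusted p = 0.276, 0.0575 without the pair, 0.0143 without Ad-Hif2a replicate 3 alone and 0.0268 in the 6 libraries compared). Ephb4, the receptor through which Efnb2 acts on osteoblasts, stood at 35.2, 32.1 and 40.7 CPM in Ad-C, 43.2, 40.5 and 40.0 CPM in Ad-Hif1a and 39.9, 40.9 and 37.7 CPM in Ad-Hif2a. The groups differed by 0.20 ± 0.15 and 0.14 ± 0.15 on the log2 scale, which did not pass (adjusted p = 0.436 and 0.529). Epha2, a receptor of Efna2 that restrains osteoblasts, stood at 30.2, 26.9 and 29.9 CPM in Ad-C, 14.6, 18.1 and 22.5 CPM in Ad-Hif1a and 19.0, 18.1 and 10.6 CPM in Ad-Hif2a. All Hif libraries were below Ad-C, and the pair was lowest in each group. Its changes of -0.66 ± 0.27 and -0.87 ± 0.27 did not pass in 9 libraries (adjusted p = 0.180 and 0.0738). The second passed in 9 libraries without the replicate block (0.0266) and by DESeq2 (0.0235), and the first in the 6 libraries compared (0.0130). Without the pair Epha2 fell with both vectors (-0.49 ± 0.15, adjusted p = 0.0181, and -0.59 ± 0.15, adjusted p = 0.00546). Leaving out Ad-Hif2a replicate 3 alone also gave both calls (0.00503 with Ad-Hif1a), and leaving out Ad-Hif1a replicate 3 the second (0.0317 to 0.0385 over these fits). Epha1, Epha4, Epha5, Ephb2, Ephb3 and Ephb6 were not called, at 0.16 (Epha4) to 0.53 (Ephb6) with Ad-Hif1a and -0.62 (Epha1) to 0.44 (Ephb6) with Ad-Hif2a. Epha6, Epha8 and Epha10, at most 0.218 CPM in a library, were not tested.

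**Figure D4:**
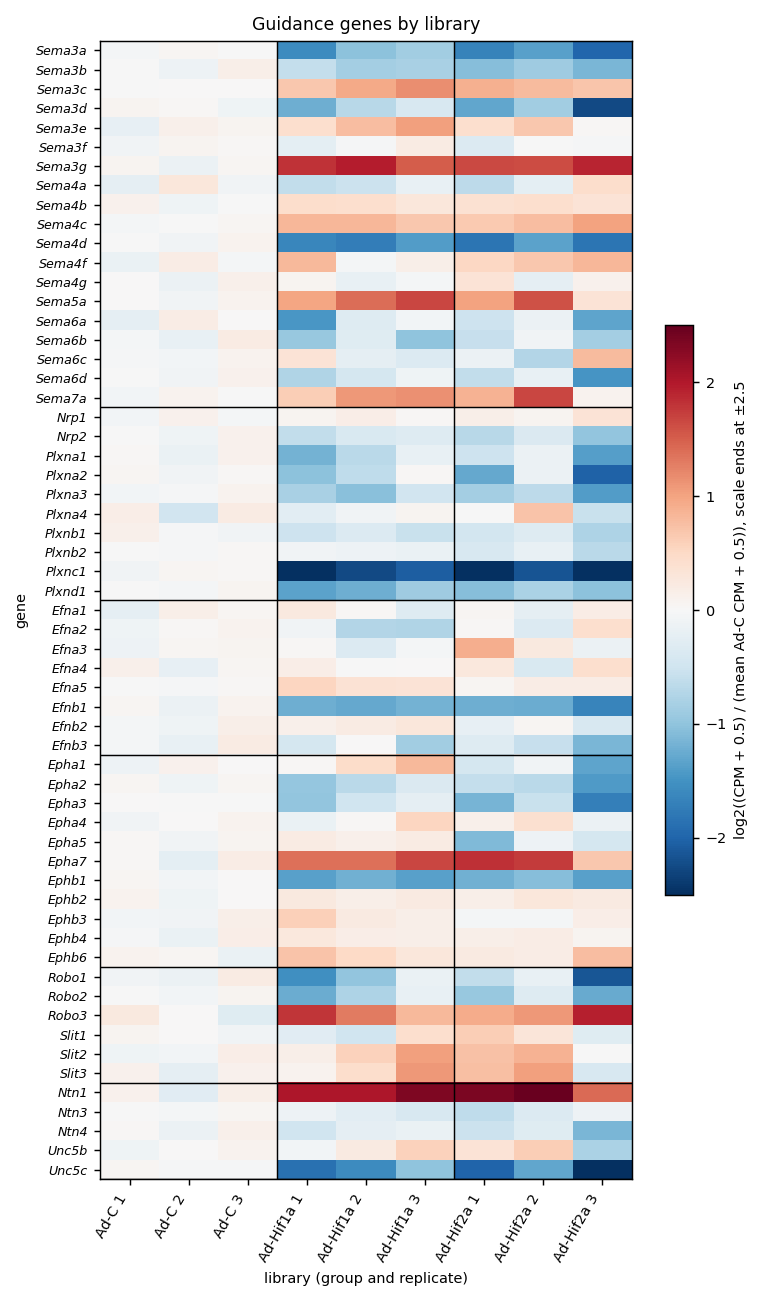
Log2 ratio of CPM plus 0.5 to the Ad-C mean plus 0.5 (colour, scale ends at ±2.5) for the 59 guidance genes tested (y axis) in each library (x axis). Ad-Hif1a replicate 1 and Ad-Hif2a replicate 3 hold the lowest value of their group for 30 and 40 of the 59 genes, and both do for 27. They hold the highest value for 17 and 13 genes, and both do for 9.

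Slits and robos gave 1 call among 6 tested. Robo3, a divergent robo of commissural axons, stood at 0.552, 0.393 and 0.214 CPM in Ad-C, 2.55, 1.69 and 1.06 CPM in Ad-Hif1a and 1.18, 1.37 and 2.91 CPM in Ad-Hif2a, and all Hif libraries were above Ad-C. These are low levels, from 10, 7 and 4 counts in the Ad-C libraries and 20, 24 and 40 in Ad-Hif2a. Robo3 rose by 2.24 ± 0.60 with Ad-Hif2a (adjusted p = 0.0468), a call lost without any 1 Ad-C library, Ad-Hif1a replicate 1 or 2, or Ad-Hif2a replicate 2 (0.0635 to 0.221), and also in the 6 libraries compared (0.0712), while without the pair the rise was 1.49 ± 0.52. With Ad-Hif1a its log2 fold change was 2.17 ± 0.59 (adjusted p = 0.0605) in 9 libraries and 2.01 ± 0.54 (adjusted p = 0.00996) in 7, and it passed without Ad-Hif1a replicate 3 or Ad-Hif2a replicate 3 alone (0.00173 to 0.0327). It passed too without the replicate block (0.0211), by DESeq2 (0.00814), without the filter on low counts (0.0384) and in the 6 libraries compared (0.00269). Slit3, a secreted robo ligand of osteoclasts and osteoblasts, stood at 59.3, 47.0 and 59.7 CPM in Ad-C, 59.0, 75.3 and 118 CPM in Ad-Hif1a and 94.0, 113 and 41.6 CPM in Ad-Hif2a. Both libraries of the pair were within or below the Ad-C range, and the others were above it. The changes of 0.60 ± 0.41 and 0.57 ± 0.41 did not pass (adjusted p = 0.392 and 0.348), and without the pair Slit3 rose by 0.75 ± 0.16 (adjusted p = 0.00229) and 1.04 ± 0.16 (adjusted p = 9.55e-05), as it did without Ad-Hif2a replicate 3 alone (0.0279 and 0.00221).

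Robo1 and Robo2 are the main slit receptors. Robo1 stood at 42.6, 41.2 and 52.8 CPM in Ad-C, 15.4, 22.7 and 40.6 CPM in Ad-Hif1a and 29.4, 40.1 and 9.98 CPM in Ad-Hif2a, with the pair lowest. Its changes were -0.82 ± 0.53 (adjusted p = 0.362) and -0.78 ± 0.54 (adjusted p = 0.323), and without the pair it fell with Ad-Hif1a (-0.68 ± 0.17, adjusted p = 0.00724, 0.143 without the block, and 0.00313 without Ad-Hif2a replicate 3 alone). Robo2 stood at 34.3, 32.9 and 35.8 CPM in Ad-C, 14.2, 19.9 and 30.0 CPM in Ad-Hif1a and 17.5, 27.2 and 14.1 CPM in Ad-Hif2a, below Ad-C in every Hif library. Its changes were -0.72 ± 0.31 (adjusted p = 0.196) and -0.82 ± 0.31 (adjusted p = 0.117), and without the pair it fell with Ad-Hif1a (-0.57 ± 0.19, adjusted p = 0.0387, and 0.117 without the block). It also passed with Ad-Hif1a without Ad-Hif1a replicate 3 or Ad-Hif2a replicate 3 alone (0.00929 to 0.0345), and with Ad-Hif2a without Ad-Hif1a replicate 3 (0.0345). Slit1 and Slit2 were not called, at -0.08 and 0.62 with Ad-Hif1a and 0.29 and 0.60 with Ad-Hif2a. Robo4, the robo of endothelial cells, had 0 counts in every library.

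Of 8 netrins and Unc5 receptors, 5 were tested. Ntn1 rose with both vectors and Unc5c fell with Ad-Hif2a, and no other was called in 9 libraries. Ntn1, the secreted ligand of Dcc, neogenin and Unc5 receptors, stood at 13.0, 9.76 and 13.4 CPM in Ad-C, 50.6, 50.2 and 62.6 CPM in Ad-Hif1a and 63.7, 69.0 and 32.8 CPM in Ad-Hif2a. All Hif libraries were above Ad-C, and Ad-Hif2a replicate 3 was the lowest of them. Ntn1 rose by 2.18 ± 0.31 with Ad-Hif1a (adjusted p = 0.00595) and by 2.18 ± 0.32 with Ad-Hif2a (adjusted p = 0.00483), and without the pair by 2.23 ± 0.15 and 2.56 ± 0.15. The Ad-Hif1a call narrowly missed the threshold without Ad-C replicate 1 (adjusted p = 0.0514). Unc5c, a netrin receptor for repulsion, stood at 81.8, 78.3 and 78.3 CPM in Ad-C, 21.5, 26.3 and 39.1 CPM in Ad-Hif1a and 19.5, 31.8 and 10.9 CPM in Ad-Hif2a, with no Hif library near Ad-C. Unc5c fell by 1.98 ± 0.39 with Ad-Hif2a (adjusted p = 0.0157), lost without Ad-C replicate 1 or 3 or Ad-Hif2a replicate 1 (0.0690 to 0.0994). Without the pair the log2 fold change of Unc5c was smaller, at -1.56 ± 0.21 (adjusted p = 2.74e-04). With Ad-Hif1a its log2 fold change was -1.46 ± 0.38 (adjusted p = 0.0520) in 9 libraries and -1.38 ± 0.22 (adjusted p = 8.46e-04) in 7, and it passed without any 1 of Ad-Hif1a replicate 3, Ad-Hif2a replicate 2 and Ad-Hif2a replicate 3 (1.13e-04 to 0.0425). In 9 libraries it passed without the replicate block (0.0181), by DESeq2 (0.00177), with upper-quartile factors (0.0485) and without the filter on low counts (0.0488), and it passed in the 6 libraries compared (3.87e-04).

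Unc5b, the Unc5 receptor of osteoclast-lineage and endothelial cells, stood at 51.1, 56.0 and 59.0 CPM in Ad-C, 52.5, 64.6 and 83.2 CPM in Ad-Hif1a and 69.9, 85.0 and 31.8 CPM in Ad-Hif2a. The Hif groups overlapped Ad-C through the pair, and the changes of 0.27 ± 0.35 and 0.14 ± 0.35 did not pass (adjusted p = 0.634 and 0.786). Without the pair, Unc5b rose with Ad-Hif2a (0.58 ± 0.13, adjusted p = 0.00332, and 0.0110 without Ad-Hif2a replicate 3 alone) and was at 0.34 ± 0.14 with Ad-Hif1a (adjusted p = 0.0760). Ntn3 and Ntn4 were not called, at -0.27 and -0.43 with Ad-Hif1a and -0.37 and -0.96 with Ad-Hif2a. Ntn5, Unc5a and Unc5d, at most 0.640 CPM in a library, were not tested. Per kb, Unc5b was at 8.84 and Unc5c at 4.15 in Ad-C, against 1.92 for Ntn1, and in Ad-Hif2a the same genes stood at 9.95, 1.08 and 8.79 CPM per kb.

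**Figure D5:**
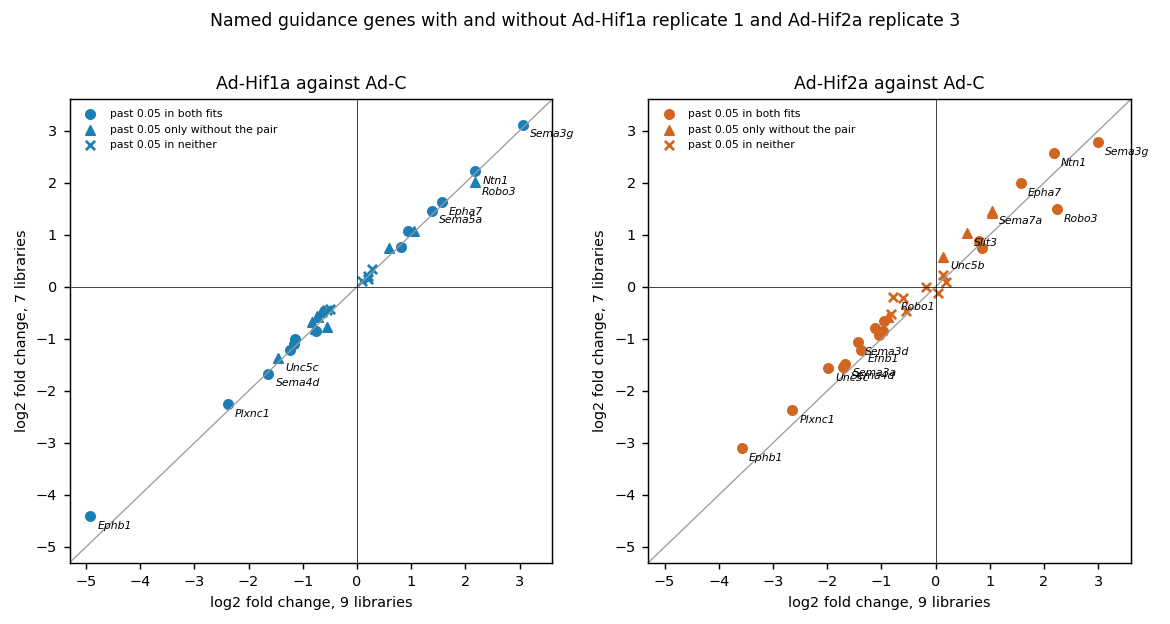
Log2 fold change against Ad-C of the called guidance genes and those with a known part in bone, from 9 libraries (x axis) and from 7 without Ad-Hif1a replicate 1 and Ad-Hif2a replicate 3 (y axis), with the line of equal values. Circles are past an adjusted p of 0.05 in both fits and triangles only in the second: Slit3 with Ad-Hif2a moves from 0.57 to 1.04, and no gene shown is past the threshold only in the first.

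Ligands and receptors can be set side by side from these counts. Of 33 ligands tested (semaphorins, ephrins, slits and netrins), Ad-Hif1a gave 5 rises and 4 falls and Ad-Hif2a 4 rises and 5 falls. Of 26 receptors tested, Ad-Hif1a gave 1 rise and 3 falls and Ad-Hif2a 2 rises and 6 falls. The shares called were 27.3% with either vector for ligands, and 15.4% and 30.8% for receptors. Of all genes tested 11.3% and 15.6% were called, where 6.04% and 7.87% rose and 5.22% and 7.72% fell. The median log2 fold changes were -0.04 and 0.05 for ligands and -0.29 and -0.58 for receptors, and the difference between ligands and receptors was not tested.

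Overlap between groups was also counted. All 3 Ad-Hif1a libraries were above all 3 Ad-C libraries for 15 guidance genes and below for 22 of 59 tested, against 24.5% and 25.9% of all genes and 50.4% in either direction. For Ad-Hif2a the numbers were 13 and 23, against 24.0% and 25.5% of all genes and 49.5% in either direction.

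A list of 48 co-receptors and intracellular effectors of guidance signalling gave 43 genes tested. With Ad-Hif1a 5 rose and 2 fell (16.3% of those tested), and with Ad-Hif2a 7 rose and 6 fell (30.2%), against 11.3% and 15.6% of all genes called. Over the fits that left out 1 library, 3 to 8 rose and 0 to 16 fell with Ad-Hif1a, and 3 to 8 rose and 1 to 10 fell with Ad-Hif2a. With Ad-Hif1a the highest counts came without Ad-Hif2a replicate 3, as did the 8 risen with Ad-Hif2a, the 10 fallen came without Ad-Hif1a replicate 3, and the lowest counts were all met without Ad-C replicate 1. The 4 with the lowest adjusted p all rose with both vectors. Draxin, a secreted guidance protein that binds netrin and its receptor Dcc, stood at 1.88, 2.58 and 1.87 CPM in Ad-C, 29.6, 30.5 and 36.5 CPM in Ad-Hif1a and 43.6, 42.1 and 25.9 CPM in Ad-Hif2a, a log2 fold change of 3.95 ± 0.27 with Ad-Hif1a (adjusted p = 3.68e-04) and 4.13 ± 0.28 with Ad-Hif2a (adjusted p = 2.48e-04). Chl1, an adhesion protein of the L1 family, had 0.718, 1.07 and 1.34 CPM in Ad-C, 43.1, 51.7 and 49.3 CPM in Ad-Hif1a and 24.6, 46.1 and 26.9 CPM in Ad-Hif2a. Its log2 fold changes were 5.54 ± 0.28 (adjusted p = 1.58e-04) and 4.93 ± 0.27 (adjusted p = 1.61e-04). Rnd1, a small GTPase that binds plexins, had 8.45, 8.80 and 7.81 CPM in Ad-C, 33.3, 31.1 and 31.0 CPM in Ad-Hif1a and 42.8, 36.5 and 42.8 CPM in Ad-Hif2a, with log2 fold changes of 1.93 ± 0.16 and 2.28 ± 0.16 (adjusted p = 5.38e-04 and 2.44e-04). For these 3 genes every Hif library was above every Ad-C library, and the calls held without any 1 library.

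Cd72, a receptor of Sema4d on B cells, stood at 14.6, 18.0 and 20.7 CPM in Ad-C, 39.8, 41.1 and 32.2 CPM in Ad-Hif1a and 38.4, 42.8 and 53.7 CPM in Ad-Hif2a. It rose by 1.10 ± 0.20 and 1.34 ± 0.20 (adjusted p = 0.0147 and 0.00536), lost with Ad-Hif1a without any 1 Ad-C library or its replicate 1 or 2 (0.0648 to 0.122), and with Ad-Hif2a without Ad-C replicate 1 (0.0533). Of the exonic bases of Cd72, 41.6% overlap Tesk1 on the opposite strand, so its reads may not be its own where counting ignored strand. Dcc, the attractive netrin receptor of neurons, had at most 2 counts in a library, and neogenin (Neo1), the other netrin receptor, stood at 165 ± 7.39 CPM (SD, n = 3) in Ad-C, 107 ± 30.0 in Ad-Hif1a and 91.1 ± 38.9 in Ad-Hif2a, changes of -0.64 ± 0.32 and -0.90 ± 0.32 that did not pass (adjusted p = 0.256 and 0.105).

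Ad-Hif2a and Ad-Hif1a were then compared directly. By edgeR, 0 of 59 guidance genes and 0 of 14413 genes passed (0%), with 3 guidance genes and 338 genes at an unadjusted p under 0.05. DESeq2 called 0 guidance genes and 19 genes. The 3 genes were lower with Ad-Hif2a: Epha1 (log2 fold change -1.13 ± 0.38), Epha5 (-0.74 ± 0.25) and Sema3a (-0.52 ± 0.21). The groups did not overlap for 6 guidance genes, all lower with Ad-Hif2a, against 3.21% of all genes lower, 3.07% higher and 6.27% in either direction. Genes called with 1 vector only were Sema5a (Ad-Hif1a) and Epha3, Plxna3, Robo3, Sema3d and Unc5c (Ad-Hif2a), and the direct differences were -0.34 ± 0.31, -0.55 ± 0.30, -0.18 ± 0.25, 0.07 ± 0.53, -0.69 ± 0.36 and -0.53 ± 0.39 in that order, none of which passed. A p that misses the threshold does not show that the factors act alike.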

How the data were processed

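RNA extracted with RNAiso Plus was made into libraries with the CORALL RNA-seq V2 kit. The submitters' processing notes name the build GRCm39 and the tools Salmon, STAR, fastp and bcl2fastq 2.20.0.422, with no order or settings. The deposited values are whole-number counts per gene symbol, not normalized by the authors, for 40213 symbols (15482 at 0 in every library). Grouping followed the sample titles. Gene positions are left out because the reference used here predates GRCm39. Exon lengths (GENCODE M21) serve levels per kb only, and promoter sequences carry their own RefSeq coordinates.

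The analysis used edgeR 4.0.16 in R 4.3.3. The 14413 genes passing filterByExpr were scaled by TMM (factors 0.957 to 1.03) and fitted on 9 libraries by robust quasi-likelihood, with group and replicate number as terms, since the study names a paired test. Benjamini-Hochberg adjustment ran over the genes tested. The SE is the log2 fold change over the root of F. The procedure was tested on simulated counts for Ad-Hif1a and Ad-Hif2a against Ad-C and for Ad-Hif2a against Ad-Hif1a. In that order it called 16.3%, 22.0% and 16.0% of 2-fold changes and 86.6%, 77.1% and 80.2% of 4-fold changes. Most simulated 2-fold changes were thus missed. Of the calls, 6.54%, 4.00% and 5.15% were genes left unchanged. The simulated libraries differed only in size, group and random spread, with no replicate effect and no library that stood apart. Far fewer genes were changed than were called against Ad-C in the data. These shares may therefore not carry over to the data. Alternatives were a fit without the block, DESeq2 1.42.0, other scalings, other filters, a fit of only the 6 libraries of a comparison, omission of each library in turn, and omission of the pair. The pair itself was picked from these libraries because it stood apart. Its omission without the block was also chosen after seeing the data.

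The guidance genes and all lists were chosen with earlier results of these data known. Values by library are given for called genes, up to 5 per family by adjusted p, for 16 genes with a textbook part in bone, and for the 4 lowest-p genes of the co-receptor and effector list.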

Additional observations from a re-analysis of the deposited data

How the results depend on the processing

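Counts of guidance genes risen and fallen were 6 and 7 with Ad-Hif1a and 6 and 11 with Ad-Hif2a. Over the fits that each left out 1 library, they ran from 1 to 13 and from 2 to 18 with Ad-Hif1a, and from 2 to 12 and from 4 to 14 with Ad-Hif2a. With Ad-Hif1a, DESeq2 gave 10 risen, the 6 libraries compared alone gave 13 risen and 16 fallen, and the fit without the pair that stood apart gave 11 and 16. With Ad-Hif2a that fit gave 13 risen. Without both the pair and the replicate block, 14 rose and 13 fell with Ad-Hif1a, and 14 rose with Ad-Hif2a. The cause of these shifts was not tested. RLE, upper-quartile and library-total scaling, and the other filters, kept all 4 counts within 1.5 times, and no setting called a guidance gene between Ad-Hif2a and Ad-Hif1a.

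Over all genes, DESeq2 called 2470 with Ad-Hif1a and 3526 with Ad-Hif2a, against 1624 and 2247 by edgeR, and the 6 libraries alone called 4706 with Ad-Hif1a. Without the pair the counts were 4022 and 4173. Of the co-receptors and effectors, 5 rose and 2 fell with Ad-Hif1a, and 7 rose and 6 fell with Ad-Hif2a. DESeq2 gave 8 and 6 with Ad-Hif1a and 11 fallen with Ad-Hif2a, the 6 libraries alone gave 8 and 13 with Ad-Hif1a and 3 fallen with Ad-Hif2a, and the fit without the pair gave 8 and 10 with Ad-Hif1a and 12 fallen with Ad-Hif2a. With at least 10 counts in every library 1 fell with Ad-Hif1a.

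No pairing by replicate number was seen, but this check cannot exclude one, since the pair of libraries that stood apart bears different numbers. Correlations of same-numbered libraries' deviations from their group means ran from -0.575 to 0.0980, and Ad-Hif1a replicate 1 went with Ad-Hif2a replicate 3 at 0.610. Without the block, 9 guidance genes rose and 9 fell with Ad-Hif1a, 7 rose and 13 fell with Ad-Hif2a, 8 and 4 co-receptors and effectors rose and fell with Ad-Hif1a, and 2379 and 3452 genes of all were called with Ad-Hif1a and Ad-Hif2a.

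Signs were followed over the fits for 36 genes only. These are the called guidance genes, those with a part in bone, 4 co-receptors and effectors, Hif1a and Epas1. Among them signs changed only for differences that were not called in either fit. Sign changes of at least the SE were as follows. Over the fits that each left out 1 library, the log2 fold change of Ad-Hif2a against Ad-Hif1a ran from -0.45 to 0.11 for Epha2, -0.32 to 0.39 for Ntn1, -0.42 to 0.12 for Plxna3, -0.48 to 0.038 for Plxnc1, -0.42 to 0.27 for Robo2, -0.71 to 0.62 for Robo3, -0.69 to 0.053 for Sema5a, -0.41 to 0.41 for Sema7a, -0.42 to 0.51 for Slit3 and -0.42 to 0.34 for Unc5b. Those values of opposite sign came without Ad-Hif2a replicate 3, and for Plxnc1 (0.0040), Robo2 and Slit3 (0.41) also without Ad-Hif1a replicate 3. Without the pair the opposite values were 0.34 (Ntn1), 0.17 (Plxna3), -0.51 (Robo3), 0.38 (Sema7a) and 0.24 (Unc5b). Without the pair Slit3 (0.28) and Robo2 (0.053) also changed sign, by less than the SE. Unc5b with Ad-Hif1a against Ad-C ran from -0.13 (without Ad-Hif1a replicate 3) to 0.46. Changes of sign smaller than the SE were met by 12 further genes between the vectors (Draxin, Efnb1, Epha7, Ephb4, Nrp1, Plxna1, Plxnb1, Robo1, Sema3c, Sema3g, Sema4c and Sema4d, -0.45 to 0.19) and by Efna2 and Unc5b with Ad-Hif2a against Ad-C (-0.21 to -0.00095). Fitting the 6 libraries compared alone also called Plxna1, Robo1, Robo2, Sema3d and Slit3 with Ad-Hif1a (adjusted p 0.00940 to 0.0391). Without both the pair and the block, Robo2 passed with Ad-Hif2a (0.0351) and Unc5b with Ad-Hif1a (0.0276). At this depth the guidance genes not tested had at most 16 counts in any library. Having 3 libraries a group, and fewer in the fits that leave out 1 library or the pair, limits the precision of each SE.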
